A study of Rattus norvegicus with 10 samples.

Results

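Myosin heavy chains were followed in cultured rat cells that the labels call A7r5, a line from embryonic rat aorta used as a model of smooth muscle, and that carried different forms of the receptor BMPR2. The genes were Myh3, Myh6, Myh7, Myh9, Myh10 and Myh11, and they were chosen by name. Every probe set of the array whose platform annotation lists 1 of these 6 genes and no other record was taken. That gave 9 of the 31042 probe sets that are not array controls, for 6 of 14217 named genes. Myh6, Myh7 and Myh11 had 2 probe sets each, and Myh3, Myh9 and Myh10 had 1 each.

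All groups were normoxic cells at about 50% confluence in 10% serum, with 2 arrays per group. The titles call the cells with BMPR2 stably transfected, and the remaining group is labelled by its transfection with empty vector. The ED mutant carried BMPR2 with T354G in the extracellular, ligand-binding domain. The CD mutant carried BMPR2 with a deletion of T at 2579-2580 in the cytoplasmic tail, and the KD mutant carried C994T in the kinase domain. The wild-type group carried human BMPR2, and the cells with empty vector, whose titles call them native, carried no added receptor. The labels do not say whether a group was a single clone or a pool, or whether its 2 arrays were separate cultures. The p-values therefore rest on a spread between arrays that may be only technical.

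Class II myosins are motors that pull on actin. Each holds a pair of heavy chains, with a motor head and a long coiled tail that packs into filaments, and light chains bound at the neck. Different heavy chain genes serve different cells: Myh3 skeletal muscle of the embryo and regenerating fibres, Myh6 and Myh7 heart muscle and, for Myh7, slow skeletal fibres, Myh11 smooth muscle, and Myh9 and Myh10 nearly all cells as the nonmuscle forms IIA and IIB. In vessel walls, Myh11 is used as a late marker of contractile smooth muscle, while Myh10, also called SMemb, is known for its presence in embryonic and dividing smooth muscle cells.

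The stretches before the starts of Myh3, Myh9 and Myh10 are shown because these are the members that differed between groups. They are the 250 bases before a start in RefSeq (rat build GRCr8), 5′ to 3′ on the strand of the gene, and capitals mark matches on either strand. The motifs searched were the TATA box with the letters TATAAA, the CCAAT box with its own letters, the E-box, where bHLH factors bind, with the letters CANNTG, a palindrome that BMP Smads can bind with the letters GGCGCC, and the CArG and MEF2 sites of muscle genes.
Myh3, chr10:52268935-52269184, plus strand: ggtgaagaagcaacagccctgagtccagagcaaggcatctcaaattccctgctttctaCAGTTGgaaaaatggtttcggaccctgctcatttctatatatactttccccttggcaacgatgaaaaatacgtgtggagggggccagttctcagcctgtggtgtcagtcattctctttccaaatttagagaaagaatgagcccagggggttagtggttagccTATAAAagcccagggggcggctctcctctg
Myh10, chr10:53893014-53893263, plus strand: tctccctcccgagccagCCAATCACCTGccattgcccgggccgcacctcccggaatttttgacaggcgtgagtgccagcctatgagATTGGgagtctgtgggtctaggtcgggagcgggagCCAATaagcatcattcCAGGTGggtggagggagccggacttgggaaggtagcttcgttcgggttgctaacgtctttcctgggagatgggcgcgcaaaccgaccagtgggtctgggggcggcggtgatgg
Myh9, chr7:111304964-111305213, minus strand: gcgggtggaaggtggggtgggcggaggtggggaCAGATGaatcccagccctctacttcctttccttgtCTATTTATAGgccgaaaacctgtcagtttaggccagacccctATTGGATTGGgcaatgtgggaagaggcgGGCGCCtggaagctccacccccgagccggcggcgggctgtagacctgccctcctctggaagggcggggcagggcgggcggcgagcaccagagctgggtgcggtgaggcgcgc
Before Myh3, a TATA box began 30 bases and an E-box 192 bases upstream of the start. Over all 33469 windows of the RefSeq table, 12.9% held a TATA box and 65.5% an E-box. Before Myh10 there were 3 matches to the CCAAT box, found in 34.0% of windows, and 2 E-boxes, of which the upstream one directly follows a CCAAT box. Before Myh9 there were 2 matches to the CCAAT box, which adjoin each other, 1 E-box, 1 Smad palindrome (8.7% of windows) and 1 MEF2 site (3.0% of windows), within which a match to the TATA box lies. A CArG site, found in 1.5% of windows, was in none of the 3. The table lists a further start for Myh9, and windows for Myh6 and Myh7, which lie next to each other with 0 protein-coding genes between them; with Myh3 and Myh10 that makes 5 of the 6 genes matched, without Myh11. These matches describe the letters alone.

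Values are log2 summaries made with RMA, as the authors deposited them, so a difference of 1 is 2-fold, and they compress differences at low signal. Tests covered probe sets with a value of at least log2 4.82, the 40th percentile of all values, on at least 2 of the 10 arrays. Of the 9 probe sets 4 were tested, 1 each for Myh3, Myh9, Myh10 and Myh11. The other 5, both of Myh6, both of Myh7 and the dimmer of Myh11, stayed below that level on at least 9 of 10 arrays, so the size of a difference there was not measured exactly. A member is said to have changed, or to be called, where limma, fitted over all 22502 tested probe sets, gave an adjusted p under 0.05.

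The 2 arrays of the KD mutant stood apart from the other 8. Their correlation with those 8 over all probe sets was 0.709 to 0.719, against 0.992 to 0.996 among the 8, and their medians were 4.94 and 4.95 against 5.31 to 5.35. Of 9 tested smooth muscle markers 6 were higher and 2 lower in the KD mutant than with wild type. In this comparison 89.6% of all tested probe sets were called. Cnn1 and Actg2 reached the filter level on 0 and 1 of the other 8 arrays. They thus entered the test only through the KD mutant arrays, where they were high. Tagln read 11.15 and 11.51 in the KD mutant and 4.82 to 5.19 on the other 8 arrays, Cnn1 7.76 and 7.97 against 3.98 to 4.57, and Acta2 9.05 and 9.72 against 6.15 to 6.41. Myocd, the coactivator that switches on smooth muscle genes, stayed below the filter level on all 10, and the epithelial gene Cdh1 read 5.74 and 6.0 against 9.22 to 10.27. Smtn, the cytoskeletal protein smoothelin, went the other way, at 8.05 and 8.62 in the KD mutant against 10.33 to 10.48, as did Mylk, at 7.22 and 7.24 against 7.64 to 7.96. Cald1, the actin-binding caldesmon, read 11.68 and 11.86 against 10.22 to 10.57. On the other 8 arrays the 11 smooth muscle markers were thus mixed: Smtn, Cald1, Mylk, Acta2 and Des lay above the filter level on all 8, Tagln, Synpo2 and Actg2 near it, and Cnn1, Myocd and Lmod1 below it on all 8. Among markers of other cells, the fibroblast genes Col1a1 and Col1a2 were also higher in the KD mutant. Col1a1 read 10.36 and 10.75 there against 5.94 to 6.11 on the other 8, and Col1a2 13.46 and 13.78 against 3.56 to 4.18. Epcam (epithelial) and Pecam1 (endothelial) stayed below the filter level on all 10. Results are given for the arrays that carry each label.

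**Figure D1:**
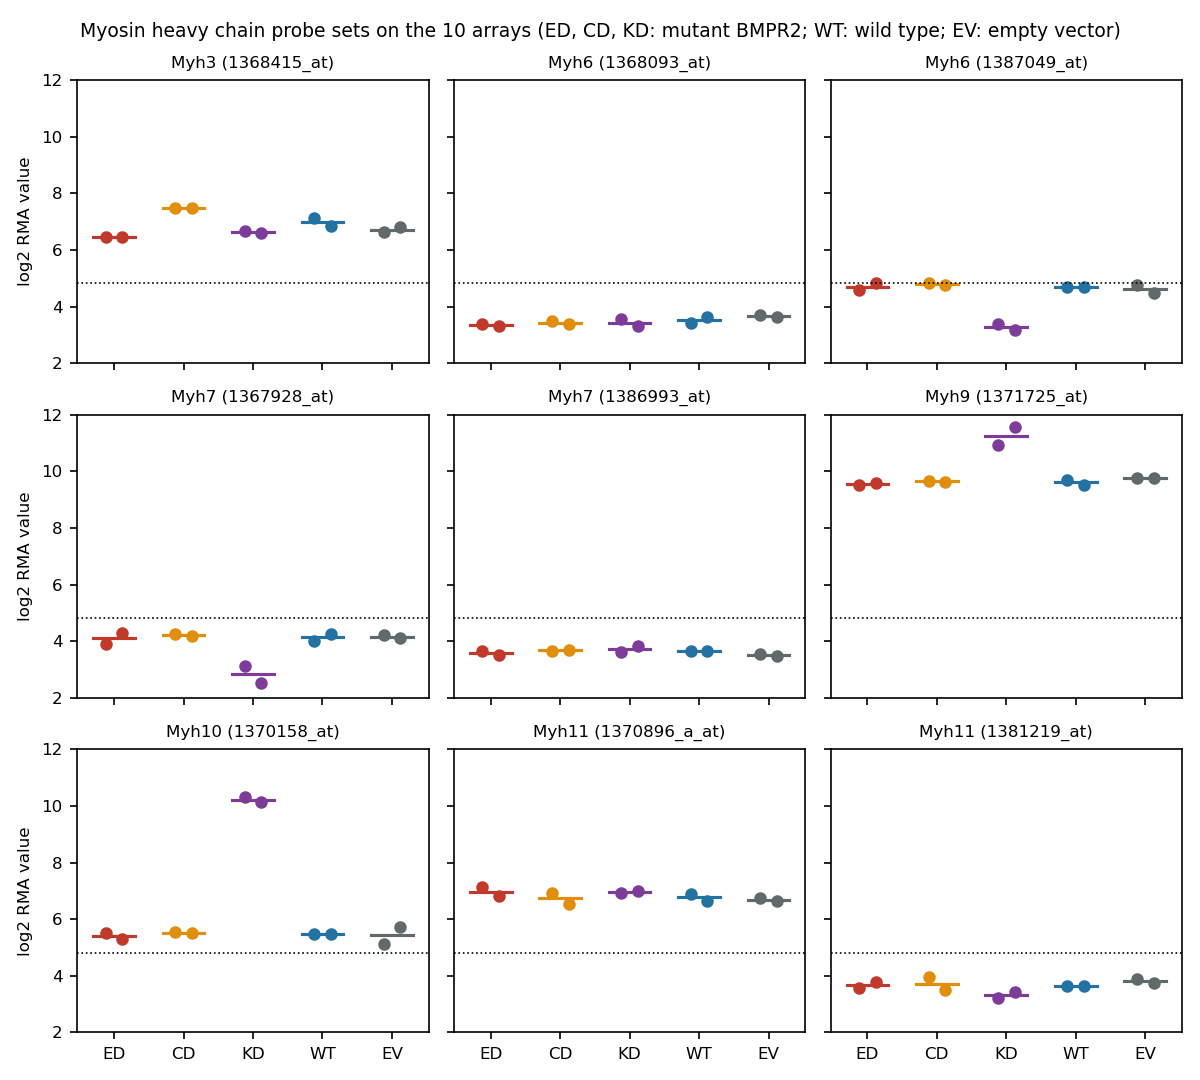
Each panel is a probe set of a myosin heavy chain gene, with the log2 RMA value of each array as a point, the group mean as a bar and the filter level of 4.82 as a dotted line. Myh3 is highest in the CD mutant and lowest in the ED mutant, and Myh9 and Myh10 are highest on the 2 KD mutant arrays, at 10.94 and 11.56 and at 10.31 and 10.14.

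Myh3, the embryonic skeletal muscle heavy chain, was the member that differed between mutants outside the KD group. It read 6.47 and 6.44 in the ED mutant, 7.49 and 7.46 in the CD mutant, 6.66 and 6.58 in the KD mutant, 7.12 and 6.85 with wild-type BMPR2, and 6.62 and 6.81 with empty vector. The CD mutant arrays were the highest of the 10 and the ED mutant arrays the lowest, and neither group overlapped another. From high to low the group means ran CD mutant, wild type, empty vector, KD mutant, ED mutant. Of the neighbours in that order, the CD mutant and wild type, and wild type and empty vector, did not differ by the test given below, the KD mutant and empty vector overlapped, and the ED and KD mutants did not overlap but were not tested.

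Set against the CD mutant, Myh3 in the ED mutant averaged 6.45 ± 0.02 against 7.47 ± 0.02 (SD, n = 2 arrays each), which was 2.03-fold lower. The log2 difference of -1.02 (SE 0.117, 95% interval -1.28 to -0.77) passed the test (adjusted p = 0.00342 in limma). It was the 1 of 4 tested members called here, where 0.351% of all tested probe sets were called. The other 3 differed by -0.10 for Myh9, -0.10 for Myh10 and 0.24 for Myh11 (adjusted p from 0.688 to 0.908), and the median of the 4 was -0.10 beside -0.01 over all tested probe sets. The Myh3 difference stayed between -1.04 and -1.01 when any 1 of the 4 arrays was left out. Its adjusted p was then 0.0511 without ED mutant replicate 1, 0.0613 without ED mutant replicate 2 and 0.055 without CD mutant replicate 1, so the call was lost in those 3 cases, and 0.0366 without CD mutant replicate 2. Without the KD mutant arrays in filter and fit it was 0.00433. In bulk RNA, fewer cells of a type and less RNA per cell cannot be told apart.

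Against empty vector, Myh3 in the CD mutant averaged 7.47 ± 0.02 against 6.71 ± 0.13 (SD, n = 2 each), a 1.69-fold rise (log2 difference 0.76, SE 0.117, adjusted p = 0.0397 in limma). This was again the 1 of 4 tested members called, where 0.111% of all tested probe sets were called. Its size was 0.67 to 0.85 when any 1 of the 4 arrays was left out, and the call was lost in each case, with an adjusted p of 0.479 without replicate 1 and 0.226 without replicate 2 of the CD mutant, and 0.532 without replicate 1 and 0.165 without replicate 2 of the empty vector. The call was also lost with all probe sets tested (adjusted p = 0.0614) and when only these 4 arrays were fitted (adjusted p = 0.179). In the ED mutant Myh3 stood at -0.26 from the same empty vector arrays (95% interval -0.52 to -0.01) without passing the test (adjusted p = 0.425), and 0 of 4 tested members were called there, where 0.529% of all were. An unadjusted p under 0.05 was found for 1 of these 4, Myh3, and for 11.4% of all tested probe sets.

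Against wild-type BMPR2, Myh3 lay to opposite sides in the ED and CD mutants without passing the test. In the ED mutant it averaged 6.45 ± 0.02 against 6.98 ± 0.19 with wild type (SD, n = 2 each; log2 difference -0.53, 95% interval -0.79 to -0.28, adjusted p = 0.172 in limma). In the CD mutant it averaged 7.47 ± 0.02 against the same wild-type arrays (log2 difference 0.49, 95% interval 0.24 to 0.75, adjusted p = 1). Neither pair of groups overlapped, but the share of all probe sets without overlap was not counted. Myh10 did not overlap between the CD mutant and wild type either, at a log2 difference of 0.05. The lack of overlap is thus a description only. In the ED mutant 0 of 4 tested members were called, against 0.164% of all tested probe sets, and in the CD mutant 0 of 4, against 0%. At an unadjusted p under 0.05 there was 1 of 4 in each comparison, Myh3, where 7.65% of all tested probe sets passed that level in the ED mutant and 3.48% in the CD mutant. The wild-type receptor against empty vector gave 0.27 for Myh3, at 6.98 ± 0.19 against 6.71 ± 0.13 (95% interval 0.01 to 0.53, adjusted p = 0.744), with 0 of 4 members called where 0.0133% of all were; 1 of the 4, Myh3, had an unadjusted p under 0.05, as had 6.54% of all tested probe sets.

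Other genes were read beside Myh3. Acta1, the skeletal muscle actin, was highest in the ED mutant, where Myh3 was lowest, at 8.39 ± 0.01 against 7.05 ± 0.08 in the CD mutant (SD, n = 2 each; 2.54-fold, adjusted p = 0.00402 in limma). It was the 1 of 7 tested skeletal muscle markers called between these mutants, where 0.351% of all tested probe sets were called. The mean over the 12 skeletal muscle markers with a probe set was 5.12 and 5.20 on the ED mutant arrays, 5.03 and 5.09 on the CD mutant arrays, 5.05 and 5.07 with wild type and 5.0 and 5.01 with empty vector. Myod1, a master regulator of skeletal muscle, was below the filter level on all 10 arrays, and Myog, which drives the fusion stage, read 5.46 to 5.57 on the 8 arrays. Among epithelial markers 2 of 9 tested were higher in the ED mutant than in the CD mutant, the keratins Krt19 (1.64-fold, adjusted p = 0.0132) and Krt18 (1.43-fold, adjusted p = 0.0482). Cdh1 was higher in the ED mutant than with empty vector, at 10.25 against 9.24 (2.01-fold, adjusted p = 0.00364), the 1 of 9 called there, where 0.529% of all tested probe sets were called. At an unadjusted p under 0.05 in limma, in either direction, there were 4 of 9 epithelial markers between the ED and CD mutants (9.39% of all tested probe sets). In the ED mutant there were 4 of 9 against empty vector (11.4%) and 5 of 9 against wild type (7.65%). Acta1 was also higher in the ED mutant than with wild type (2.59-fold, adjusted p = 0.0229) and with empty vector (4.54-fold, adjusted p = 0.000273). The poly-A control transcripts, which are added during labelling, averaged 8.26 in the ED mutant, 8.59 in the CD mutant, 7.91 with wild type and 7.89 with empty vector. The part of these markers and controls in the Myh3 difference was not tested.

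Over the 8 arrays without the KD mutant, 3583 probe sets of named genes had a range of at least 0.5, and those most like Myh3 by Pearson correlation were taken. Tcf12, a bHLH transcription factor that binds E-boxes, had r = 0.969, Agpat3, an acyltransferase of phospholipid synthesis, 0.959 and Pum2, an RNA-binding repressor of translation, 0.959. Tcf12 averaged 5.29 in the ED mutant, 5.75 in the CD mutant, 5.60 with wild type and 5.44 with empty vector. Prom1, a membrane glycoprotein of cell protrusions, and Tubb2b, a beta-tubulin, ran opposite, with r = -0.973 and -0.965. Tubb2b averaged 11.02 in the ED mutant, 10.52 in the CD mutant, 10.67 with wild type and 10.91 with empty vector. These correlations are a description of 8 arrays in 4 groups, which share their group means, and the genes were picked from 3583 candidates for this measure.

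**Figure D2:**
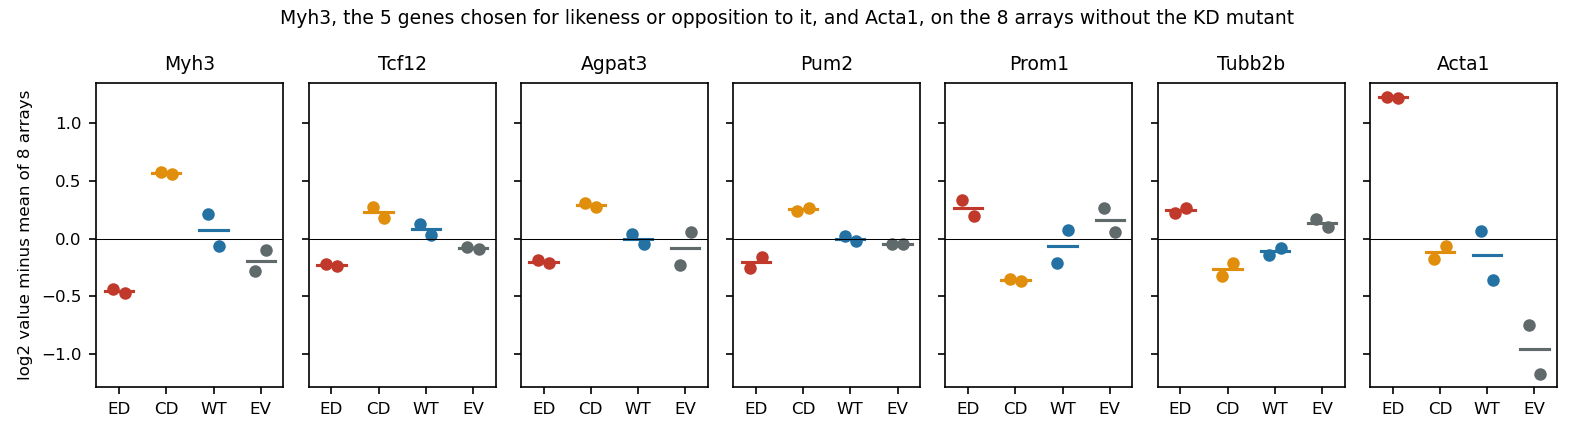
Each panel shows a gene on the 8 arrays without the KD mutant, as the log2 value minus the gene's mean over those arrays, with points for arrays and bars for group means. Myh3, Tcf12, Agpat3 and Pum2 are highest in the CD mutant and lowest in the ED mutant, Prom1 and Tubb2b run the other way, and Acta1 is highest in the ED mutant and lowest with empty vector.

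The counted probe sets of Myh9, the heavy chain of nonmuscle myosin IIA, and of Myh10, that of nonmuscle myosin IIB, set the KD mutant arrays apart. Myh10 read 10.31 and 10.14 in the KD mutant, against 5.52 and 5.31 in the ED mutant, 5.54 and 5.50 in the CD mutant, 5.47 and 5.46 with wild type and 5.12 and 5.73 with empty vector. Both KD mutant arrays lay far above the other 8, whose group means spanned 0.10. Against wild type the difference was 4.75 on the log2 scale (SE 0.168, 95% interval 4.39 to 5.12), or 27-fold (adjusted p = 1.13e-10 in limma). In the ranking of all probe sets of an array, Myh10 stood on average at percentile 96.3 in the KD mutant and 52.8 on the other 8 arrays.

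Myh9 read 10.94 and 11.56 in the KD mutant, against 9.50 and 9.59 in the ED mutant, 9.67 and 9.63 in the CD mutant, 9.70 and 9.53 with wild type and 9.76 and 9.77 with empty vector. The KD mutant arrays were again above all others, and their SD of 0.44 was the largest of the 5 groups for this probe set. The difference from wild type was 1.64 (SE 0.164, 3.12-fold, adjusted p = 1.18e-06 in limma). A probe set annotated to a pair of records that are both named Myh9, and so not counted among the 9, read 6.12 and 6.57 in the KD mutant and 6.15 to 6.73 on the other 8 arrays (log2 difference from wild type 0.02, adjusted p = 0.902). The probe sets that name Myh9 thus disagreed on the KD mutant arrays.

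Myh11, the smooth muscle heavy chain, read 6.92 and 6.98 in the KD mutant by its brighter probe set, against 7.13 and 6.81 in the ED mutant, 6.92 and 6.55 in the CD mutant, 6.91 and 6.65 with wild type and 6.74 and 6.64 with empty vector. The KD mutant arrays lay within the range of the other 8. The difference from wild type was 0.17 (95% interval -0.15 to 0.50, adjusted p = 0.284 in limma). In the other 6 comparisons Myh11 differed by -0.04 to 0.28, the widest being the ED mutant against empty vector (6.97 ± 0.23 against 6.69 ± 0.07, adjusted p = 0.535). The dimmer probe set of Myh11 read 3.21 and 3.42 in the KD mutant and 3.48 to 3.96 on the other 8, all below the filter level.

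In the KD mutant against wild type 3 of the 4 tested members changed, Myh9 (by its counted probe set) and Myh10 up and Myh3 down, where 89.6% of all tested probe sets were called, so this count says nothing particular to myosins. The median over all tested probe sets was -0.56 here, and -0.49 and -0.16 after quantile normalization and after centring each array on its median. Myh10 stayed at 4.46 and 5.15 and Myh9 at 1.22 and 2.04 under those scalings. The direction of Myh3 and of Myh11 depended on the scaling: Myh3, at 6.62 ± 0.06 against 6.98 ± 0.19, differed by -0.36 as deposited (adjusted p = 0.011), -0.70 after quantile normalization and 0.03 after centring, and Myh11 by 0.17, -0.23 and 0.57. Without wild-type replicate 1, Myh3 as deposited differed by -0.23 and was not called (adjusted p = 0.139 in limma). Poly-A controls averaged 6.95 in the KD mutant and 7.91 with wild type. Markers of other cells moved on the same arrays: the mean over 8 fibroblast markers was 7.80 and 7.90 on the KD mutant arrays against 4.52 to 4.74 on the other 8, that over 11 smooth muscle markers 7.99 and 8.16 against 6.09 to 6.24, and that over 11 epithelial markers 5.81 and 5.83 against 6.83 to 7.07. These means hide genes that went the other way. Against wild type 5 of 6 tested fibroblast markers were higher and 1 lower, and 1 of 9 tested epithelial markers was higher and 8 lower. Of the 8 fibroblast markers 4 stayed below the filter level on all of the other 8 arrays. Among the tested ones these were Col1a2, at 3.56 to 4.18 there, and Postn, with group means of 3.43 to 3.83. Col1a2 and Postn thus entered the test only through the KD mutant arrays, where they were high, so the filter fixed their part in the count. The higher epithelial marker, Krt7, averaged 11.94 against 7.16, and the lower fibroblast marker, Pdgfra, 4.25 against 5.53. The part of these markers in the Myh9 and Myh10 differences was not tested.

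**Figure D3:**
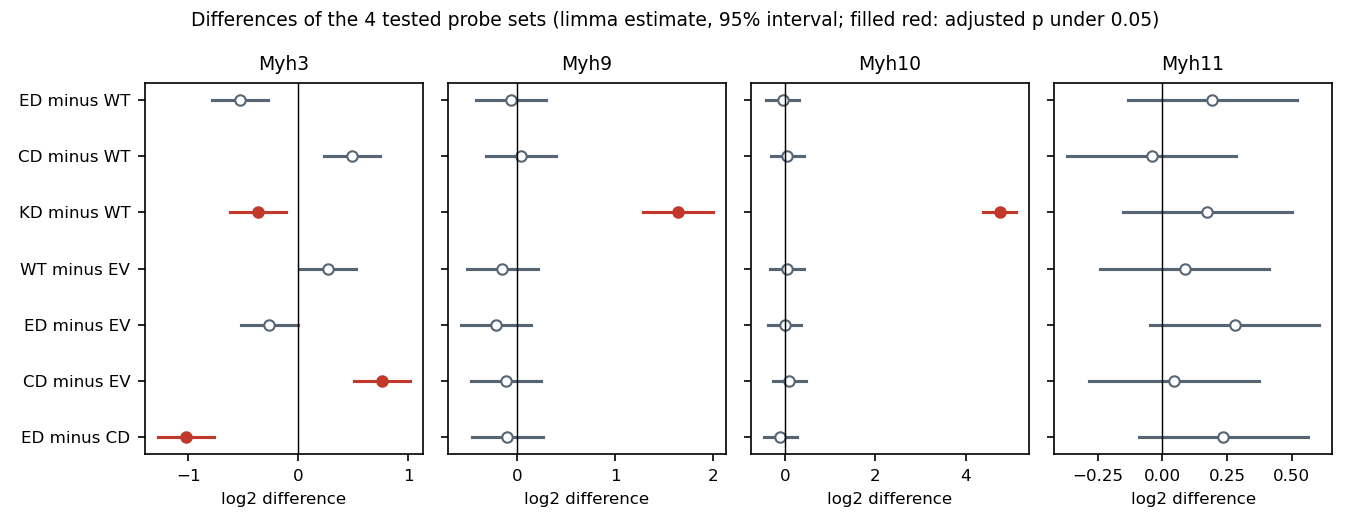
Each panel gives the log2 difference of a tested myosin heavy chain probe set in 7 comparisons, as the limma estimate with its 95% interval, filled red where the adjusted p is under 0.05; the horizontal scales differ. Myh3 was called between the ED and CD mutants, between the CD mutant and empty vector and between the KD mutant and wild type, Myh9 and Myh10 in the last of these alone, and Myh11 in none of the 7.

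Myh6 and Myh7, the alpha and beta heavy chains of the heart, were dim on all arrays. Their 4 probe sets read at most 4.82, the filter level, which a probe set of Myh6 reached on 1 CD mutant array. Within each gene the probe sets differed on the KD mutant arrays. For Myh6 a probe set read 3.40 and 3.17 there against 4.49 to 4.82 on the other 8, while the other read 3.55 and 3.32 against 3.30 to 3.70. For Myh7 a probe set read 3.12 and 2.53 there against 3.91 to 4.28, while the other read 3.63 and 3.84 against 3.47 to 3.68. Only the first named of each pair lay apart from the other 8 arrays. When all probe sets were tested without the filter, these were called in the KD mutant against wild type, the Myh6 probe set at -1.41 (adjusted p = 5.47e-07 in limma) and the Myh7 probe set at -1.31 (adjusted p = 2.04e-05), and the other of each gene was not, at -0.10 (adjusted p = 0.46) and 0.09 (adjusted p = 0.475). In that test 26816 of 31042 probe sets were called, so a call there says nothing particular to these genes. A pair of probe sets annotated to both genes was brighter and also lay lower in the KD mutant than with wild type (log2 difference -1.02, adjusted p = 2.58e-06, and -0.93, adjusted p = 4.93e-05, in limma). Among the ED mutant, CD mutant, wild type and empty vector, the 5 dim probe sets of Myh6, Myh7 and Myh11 differed by -0.32 to 0.17 between groups, and none was called when tested without the filter. Of 10 tested cardiac markers 2 were higher and 8 lower in the KD mutant than with wild type. In this comparison 89.6% of all tested probe sets were called, so this count says nothing particular to cardiac genes. The median of these markers was -0.81 beside -0.56 over all tested probe sets. The cardiac regulator Nkx2-5 read 5.64 and 5.95 in the KD mutant against 6.13 to 6.36 on the other 8 arrays, and Nppa, atrial natriuretic peptide, 4.57 and 4.89 against 5.53 to 5.88. The higher ones were Tnnc1, the troponin C of heart and slow skeletal muscle, at 12.08 and 12.24 in the KD mutant against 5.58 to 6.29, and Tnnt2, the cardiac troponin T, at 7.54 and 7.78 against 4.31 to 5.56.

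The partners of the heavy chains were read from 4 lists, with the brightest probe set per gene. Between the ED and CD mutants, where Myh3 differed, 0 of 4 tested heavy chains outside the 6 genes, 0 of 7 light chains, 0 of 12 genes of light chain phosphorylation and 0 of 9 chaperones and thick filament partners changed. Their medians were -0.12, -0.01, -0.03 and 0.05 on the log2 scale, beside -0.01 over all tested probe sets. Of all tested probe sets 0.351% were called between these mutants. The same counts of list genes were 0 in limma in each of the other 5 comparisons without the KD mutant, where 0% to 0.529% of all tested probe sets were called. At such shares a count of 0 says little about lists of this size. At an unadjusted p under 0.05 there was 1 light chain between the ED and CD mutants, where 9.39% of all tested probe sets passed that level. In the other 5 comparisons only genes of light chain phosphorylation passed that level: 1 of 12 in the ED mutant against wild type (7.65% of all tested probe sets), 0 in the CD mutant against wild type (3.48%), 4 in the ED mutant (11.4%) and 4 in the CD mutant (8.74%) against empty vector, and 2 in wild type against empty vector (6.54%).

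In the KD mutant against wild type, with 89.6% of probe sets called, 1 heavy chain of the 4 was higher and 3 lower, 3 light chains of the 7 higher and 4 lower, 2 phosphorylation genes of the 12 higher and 7 lower, and 2 chaperones and partners of the 9 higher and 6 lower. Some of these genes were named after their values were seen. Among the higher ones, the light chain Myl4 and the partners Myom1 and Myom2 had group means below the filter level outside the KD mutant. These were 4.49 to 4.71, 4.20 to 4.56 and 4.53 to 4.69, against 6.456, 5.465 and 5.0 in the KD mutant. Such dim probe sets entered the test more readily where the KD mutant was high, so the filter favoured counting them as higher. Myl9, the regulatory light chain of smooth muscle myosin, averaged 10.67 against 5.52 (log2 difference 5.15, adjusted p = 1.17e-11 in limma), and Myl12a, a nonmuscle regulatory light chain, 13.35 against 9.59 (adjusted p = 4.99e-11). Myh14, the heavy chain of nonmuscle myosin IIC, averaged 7.78 against 6.14 (adjusted p = 1.29e-06). Myl12b, a near copy of Myl12a, averaged 6.23 against 7.31 (adjusted p = 0.000244), and such near copies may share probes. Mylk, the kinase that phosphorylates the regulatory light chain, averaged 7.23 against 7.89 (adjusted p = 3.93e-05), and Unc45b, a chaperone that folds the myosin head in striated muscle, 5.96 against 7.34 (adjusted p = 2.18e-07).

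**Figure D4:**
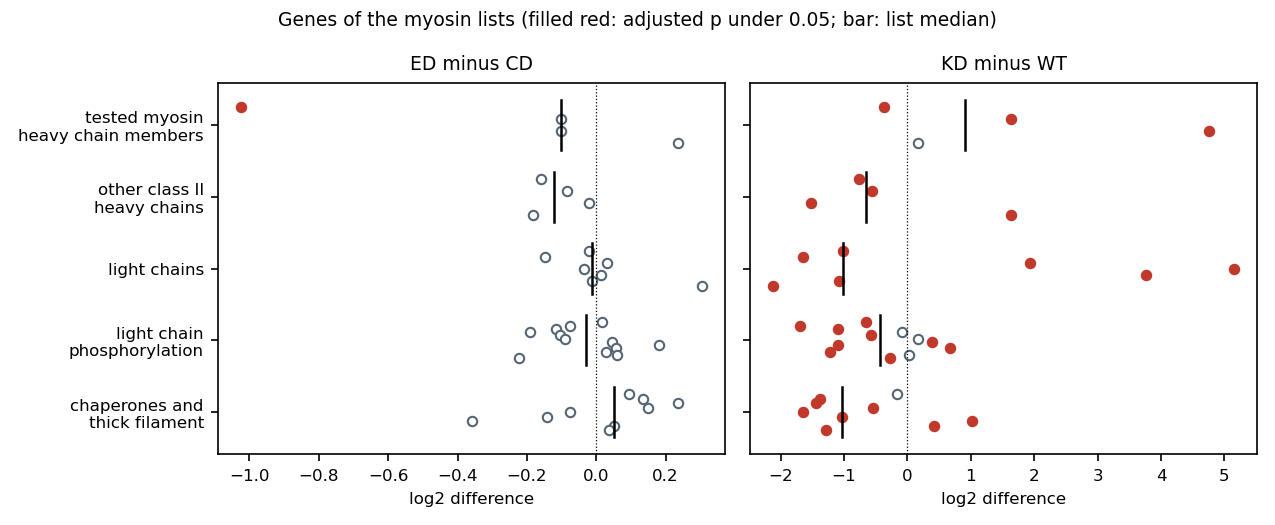
Each point is a tested gene of a list, placed by its log2 difference between the ED and CD mutants on the left and between the KD mutant and wild type on the right, filled red where the adjusted p is under 0.05, with list medians as bars; the horizontal scales differ. Myh3 is the 1 filled point on the left, at -1.02, while most points on the right are filled.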

How the data were processed

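Biotin-labelled total RNA was measured on Affymetrix rat arrays with 1 sample each, per the labels' protocols. The authors deposited log2 values, 1 per probe set, and the submitters' processing notes name RMA. The RMA version is not given in the sources used here, nor is a joint normalization of the arrays. Detection calls were not used here, and precision is limited by the number of arrays. Of 31099 probe sets 57 array controls were left out. Probe sets were named from the platform annotation, with symbols updated by gene identifier from the RefSeq table of GRCr8; 20826 had 1 gene. The record given for the Myh9 probe set is not in that table, so its platform symbol was kept.

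The analysis used limma 3.58.1 (R 4.3.3) on the deposited log2 values (5 group means on all 10 arrays, contrasts, eBayes; 5 residual degrees of freedom, 11.4 after moderation), with two-sided p-values adjusted by Benjamini-Hochberg over 22502 tested probe sets. SE is the moderated standard error. An exact permutation test of 2 arrays against 2 cannot go below p = 0.333 and was not used. The members, gene lists and tests were chosen with earlier results of these data known. By rule, all member probe sets, the defining markers that had a probe set and the list genes called without the KD mutant were named. So were the 3 most positively and 2 most negatively correlated genes of a called member. Other list genes, those given only for the KD mutant among them, were named after their values were seen.

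The fit was tested on simulated data for the CD mutant against wild type over 22502 probe sets: of planted log2 changes, it recovered 14.9% of 67 at 0.5, 86.6% of 67 at 1 and 100% of 66 at 2, with 8 false calls. These changes were planted together, all upward, with independent normal noise, whereas 0 probe sets were called in the real comparison. Recovery of a lone change was not tested. Alternatives were other filters, scalings, variance models, sample sets and a stricter threshold. Replicate numbers 1 and 2 are shared by all groups, and 1 of 10 pairs of groups had deviations correlated over 0.1 (range -0.03 to 0.14), so the numbers were not taken to pair samples.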

Additional observations from a re-analysis of the deposited data

How the results depend on the processing

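The call of Myh3 between the ED and CD mutants held in all 9 settings that kept every array of the 2 groups, with log2 differences of -1.08 to -1.01 and adjusted p of 0.000141 to 0.0226, and the number of members called ran from 0 to 1 when single arrays were left out. Myh3 in the CD mutant against empty vector kept its direction (0.74 to 0.80), but the number of members called, 1, became 0 with no filter, with a replicate block, with only the arrays compared, at an adjusted p under 0.01, and without any 1 of the 4 arrays. With the replicate block its adjusted p was 0.0687; the block changed no other member's call, and the replicate numbers do not show a pairing. In the ED mutant against wild type 0 members became 1, Myh3, with a trended, robust variance (adjusted p = 0.0461). In the KD mutant against wild type 3 became 5 of 9 with no filter, where 26816 of 31042 probe sets were called. Myh3 there reversed to 0.032 after centring and was not called without wild-type replicate 1 (-0.23, adjusted p = 0.139), and Myh11 reversed to -0.23 after quantile normalization and was called after centring, at 0.57 (adjusted p = 0.00301). Counting the probe set annotated to a pair of Myh9 records, an alternative chosen after seeing the data, changed no count.

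Some differences that did not pass the test changed direction when single arrays were left out. The others kept it, those of Myh3 among them. For Myh9 those that changed direction ran from -0.148 to 0.017 in the ED mutant and -0.047 to 0.118 in the CD mutant against wild type. For Myh10 they ran from -0.156 to 0.051 in the ED mutant against wild type, -0.26 to 0.35 in wild type, -0.32 to 0.30 in the ED mutant and -0.21 to 0.40 in the CD mutant against empty vector, and -0.207 to 0.001 in the ED against the CD mutant. For Myh11 they ran from -0.22 to 0.14 in the CD mutant against wild type, and from -0.042 to 0.215 in wild type and -0.14 to 0.23 in the CD mutant against empty vector. The causes were not tested.

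Counts over all tested probe sets, which set the background, moved more. With a trended, robust variance 142 were called in place of 37 (ED mutant against wild type), 68 in place of 3 (wild type against empty vector), 493 in place of 119 (ED mutant against empty vector), 144 in place of 25 (CD mutant against empty vector) and 287 in place of 79 (ED against CD mutant). Leaving out single arrays gave 0 to 1, 1, 19 to 37, 1 and 12 to 31 in the same order. Fitting only the arrays compared gave 0, 1, 63, 1 and 38, and the threshold of 0.01 gave 0, 1, 36, 3 and 37. Without the KD mutant arrays the last 3 were 320, 43 and 145. For the ED mutant against empty vector a 60th percentile filter gave 198 and quantile normalization 179, and for the CD mutant against empty vector no filter gave 8 and the replicate block 12. For wild type against empty vector both of these gave 1.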
